A study of Mus musculus with 4 samples.

Results

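The replication-dependent histone genes encode the linker histone H1 and the core histones H2A, H2B, H3 and H4 that package newly made DNA. They were taken as all gene symbols of the forms Hist1h, Hist2h, Hist3h and Hist4h, which gave 70 genes of the 55450 in the deposited table. Their transcripts were counted as unique molecular identifiers (UMIs), tags that mark single molecules, in droplet-based single-cell RNA sequencing of 4T1 tumours. 4T1 is a mouse mammary carcinoma line. The study lists 4 samples. All came from female BALB/c mice of 6 to 8 weeks that carried 1000000 implanted 4T1 cells. The mice were injected intravenously on day 7. They were lit at 980 nm and 1 W per square cm on each of days 8, 9 and 10 (5 min a day). Tumours were taken on day 13. The injection was PBS for 2 samples (LC-2 and LC-5) and TIOs, a light-controlled oncolytic system of micron scale that the study made from engineered macrophages, for 1 sample (LC-6). For the sample titled PBS, the title says PBS and the protocol text TIOs, so it was left without a group. Cells were sorted for CD45, the surface protein of leucocytes encoded by Ptprc.

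In dividing cells these genes are transcribed while DNA is copied and are shut off when copying ends. Their mRNAs usually end in a short stem-loop instead of a poly(A) tail. The stem-loop is bound by SLBP, which guides trimming, translation and decay of the mRNA. The droplet kit primes on poly(A), so UMIs of these genes come from poly(A)-tailed transcripts or from priming at A-rich stretches, and these sources cannot be told apart in the counts. Some members are known to be made as poly(A)-tailed mRNAs in cells that no longer divide, from signals downstream of the stem-loop.

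All 4 libraries are in 1 table, and only a suffix on the barcode separates them. No label ties a suffix to a sample, so the libraries are numbered 1 to 4 as in the table, their treatment is unknown, and no treatment was compared. With no replicates of known group, no p-value is given. Intervals cover counting error only. Of 33064 barcodes, 32133 had at least 300 genes and at most 15% mitochondrial UMIs and were kept. The libraries held 69255999 to 108646352 UMIs, with a median of 2642 to 11698 per kept cell. Any pair of libraries shared 11 to 23 barcodes. A cell was gated to 1 of 12 classes from 8 marker genes each, which placed 23199 cells (72.2%). Cells with at least 2 UMIs of Top2a and Mki67 together are called cycling, and cells with 0 are called non-cycling. Cells with exactly 1 are in neither group. Both groups held at least 20 cells in 15 pairs of a class and a library. These were tumour or epithelial cells in libraries 1 and 2, fibroblasts in 2, 3 and 4, endothelial cells in 2, neutrophils in 2 and 3, monocytes or macrophages in 1, 2 and 4, and T cells in all 4. Levels are given as CPM, the UMIs of a gene or list per 1000000 UMIs of the summed cells. Ptprc was at 273 to 938 CPM in the neutrophil, monocyte or macrophage and T cell gates. It was at 7.79 to 30.9 in the tumour, fibroblast and endothelial gates with at least 20 cells, although the sort was for CD45.

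The stem-loop was searched in the mouse transcripts of GENCODE vM21 as a perfect stem of 6 bases that begins with GG and closes a loop of 4 bases that begins with TTT, within 100 bases after the stop codon. It was found in 44 members, at 21 to 58 bases after the stop. Of all 21951 coding genes, 49 (0.223%) held it, the other 5 being Cdc40, H2afx, H2bfm, Tal1 and Ttc14. The 44 members used 6 different stem-loops, and 26 of them shared 1. The stem-loops of members with contrasting patterns are printed from 5′ to 3′ with the stem and loop in capitals, on the strand of the transcript:
Hist1h2ap: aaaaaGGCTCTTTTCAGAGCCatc
Hist1h2ae: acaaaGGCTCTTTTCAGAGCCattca
Hist1h1c: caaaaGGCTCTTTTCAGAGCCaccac
Hist3h2a: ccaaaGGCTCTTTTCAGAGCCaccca
Hist1h4d: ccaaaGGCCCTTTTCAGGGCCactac
Hist1h4i: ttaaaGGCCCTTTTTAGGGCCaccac
Hist1h2ap, Hist1h2ae, Hist1h1c and Hist3h2a had the same stem and loop and differed in what was annotated downstream. The transcript of Hist1h2ap (chromosome 13, 21833026 to 21833507, minus strand, GRCm38) ended 3 bases after the stem-loop. That of Hist1h2ae (chromosome 13, 23570517 to 23571220, minus strand) ran on for 151 bases, with 1 AATAAA, the core poly(A) signal. Hist1h1c (chromosome 13, 23738808 to 23740367, plus strand) ran on for 840 bases and Hist3h2a (chromosome 11, 58954685 to 58956830, plus strand) for 1643 bases, each with 1 AATAAA. The annotated transcript of Hist1h2bc (chromosome 13, 23684199 to 23692908, plus strand) had 2 exons, no stem-loop and 1 AATAAA. The annotation of 17 coding members ended at most 60 bases after the stop and held no stem-loop, among them Hist1h1b, which ended at the stop itself. A missing match there says only that these letters are not in the annotated transcript.

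By annotation, 56 of the 70 members lie on chromosome 13, 10 on 3, 3 on 11 and 1 on 6. Of the 70 members, 66 had a UMI in a kept cell, and together they held 156388 UMIs. Hist1h2ap, an H2A gene, had 44315, Hist1h2bc, an H2B gene, 23585 and Hist1h1c, which encodes linker histone H1.2, 19227. These 3 made up 55.7% of the members' UMIs, and the 12 members with the most UMIs 86.6%. By family, the 20 H2A genes held 42.3%, the 6 H1 genes 25.3%, the 19 H2B genes 19.7%, the 13 H4 genes 9.52% and the 12 H3 genes 3.18%. The testis genes, kept as a low reference, were near 0. Hist1h1t had 24 UMIs, Hist1h2aa 2 and Hist1h2ba 0. No UMI was seen of Hist1h4m, Hist1h2aj or Hist2h3c1 either.

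Many members are near copies of each other, and reads that fit several genes may have been dropped or split in counting. Of the 50-base stretches in the last 400 bases of each gene's transcripts, over 50% were also found in another gene for 41 members, and all of them for 6. For Hist1h2ap the shared part was 100%, mainly with Hist1h2ao, Hist1h2ag and Hist1h2ac, so its counts may hold or lack molecules of these genes. For Hist1h1e it was 100%, with the overlapping transcript of Hist1h2be on the same strand. Hist1h1b, Hist1h1c, Hist3h2a, Hist1h4i and Hist1h4d shared none. Hist1h2al is annotated as a processed pseudogene, and 67.6% of its stretches were found in other genes such as Hist2h2aa1. Of the members without a UMI, the shared part was 100% for Hist2h3c1, 93.1% for Hist1h2aj, annotated as a pseudogene, 90.3% for Hist1h4m and 38.2% for Hist1h2ba. Reads of these genes may have been dropped in counting, so a count of 0 does not show that they were not transcribed.

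The summed level of all 70 genes was higher in cycling than in non-cycling cells in 15 of 15 pairs, and the 95% interval of the fold lay above 1 in 14. The median fold of all genes was 0.902 to 1.073 outside neutrophils, and 1.497 and 1.445 in neutrophils of libraries 2 and 3. The fold of the histone sum was above this median in each pair outside neutrophils and below it in both neutrophil pairs. A fold of a sum weights members by their UMIs, so it is not the same measure as a median over genes. The median fold of members with at least 10 UMIs was 1 and 1.97 in neutrophils of libraries 2 and 3. That was below the median of all genes in library 2 and above it in library 3. A higher sum in neutrophils thus does not by itself set the histones apart from other genes. Without Hist1h2ap, the sum in both neutrophil pairs was lower in cycling than in non-cycling cells, with no interval computed. T cells had the 3 highest histone folds. In non-cycling T cells the members summed to 724, 253, 215 and 201 CPM in libraries 1 to 4, and in cycling T cells to 3400, 1621, 697 and 1351. The folds were 4.69 (4.29 to 5.14), 6.41 (4.89 to 8.56), 3.24 (2.71 to 3.87) and 6.72 (5.30 to 8.58). No cycling T cell value overlapped the non-cycling values of libraries 2 to 4, while that of library 3 was below the non-cycling value of library 1. In fibroblasts of libraries 2, 3 and 4 the level was 125, 151 and 142 in non-cycling cells and 441, 475 and 598 in cycling cells, with folds of 3.54 (3.38 to 3.72), 3.15 (2.99 to 3.32) and 4.22 (3.98 to 4.47). In tumour or epithelial cells it was 398 and 1045 in library 1 and 184 and 301 in library 2, which gave 2.63-fold (2.57 to 2.69) and 1.64-fold (1.39 to 1.93). Endothelial cells of library 2 went from 154 to 495 CPM, or 3.21-fold (2.66 to 3.90). Without Hist1h2ap, the member with the most UMIs, the median fold over libraries was 2.13 in place of 3.54 in fibroblasts and 3.55 in place of 5.55 in T cells. With each cell given equal weight, the endothelial fold was 1.53. Cells with 1 UMI of the gate genes, in neither group, were at 110, 119 and 112 CPM in fibroblasts of libraries 2 to 4. In T cells of libraries 1 to 4 such cells were at 716, 322, 326 and 213. The 8 fibroblast markers were lower in cycling fibroblasts, at 60301, 31082 and 26659 CPM in non-cycling and 29593, 11334 and 18109 in cycling cells of libraries 2 to 4, and their part in the folds was not tested.

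In monocytes or macrophages the level was 491 and 1655 in library 1, 170 and 422 in library 2 and 162 and 229 in library 4. The folds were 3.37 (3.22 to 3.52), 2.49 (2.07 to 2.98) and 1.42 (1.21 to 1.65). That of library 4 turned to 0.865 without the cells with the highest 5% of UMIs of their class and library. In library 4 the natural killer cell markers went from 4.98 to 221 CPM between non-cycling and cycling cells, with 3 of 8 at 0. The neutrophil markers went from 578 to 813. Endothelial markers fell from 76.0 to 31.6 and B cell markers from 38.6 to 38.2. The part of these markers in the fold of library 4 was not tested. Neutrophils had 426 and 445 in library 2, a fold of 1.04 (0.830 to 1.30), and 554 and 742 in library 3, a fold of 1.34 (1.17 to 1.52). Depth moved with the gate in every pair, since the median cycling cell held 1.37 to 5.14 times the UMIs of the median non-cycling cell. After drawing each cell down to 2000 UMIs before gating, 6 pairs kept enough cells, with folds of 2.67 to 6.21. In neutrophils the 8 neutrophil markers fell from 91139 to 13607 CPM in library 2 and from 84253 to 21729 in library 3 between non-cycling and cycling cells. The cycling neutrophils were 20 and 41 cells. In library 2 the tumour or epithelial markers went from 45.1 to 1054 CPM in them, with 2 of 8 at 0, and the fibroblast markers from 1720 to 1266. In library 3 the tumour or epithelial markers went from 6.06 to 95.7, with 6 of 8 at 0, the T cell markers from 44.5 to 254 and the cDC (conventional dendritic cell) markers from 60.6 to 299, each with 2 of 8 at 0. The part of these markers in the folds was not tested.

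**Figure D1:**
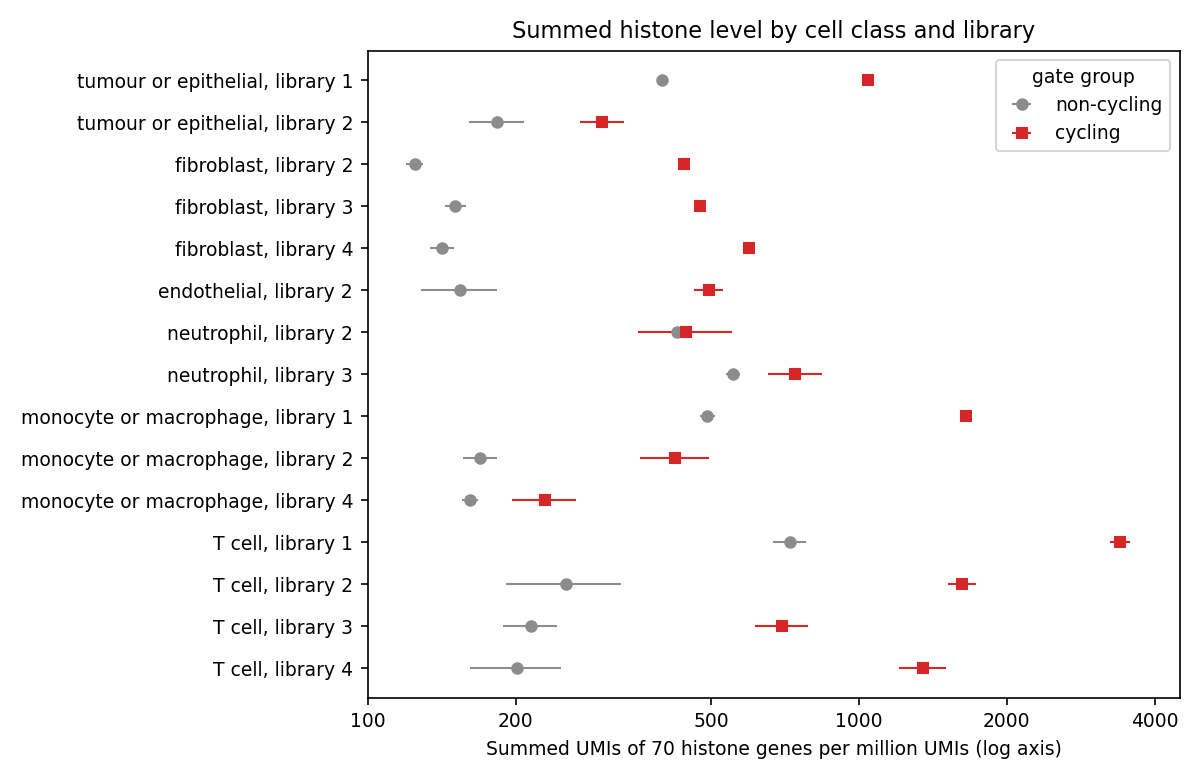
Summed level of the 70 histone genes in CPM on a log axis, for each of 15 pairs of a cell class and a library, in non-cycling (circles) and cycling cells (squares), with exact 95% Poisson intervals for counting error. Cycling values sat to the right in all pairs, with almost no gap in neutrophils of library 2 (426 and 445).

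Single members were compared where they had at least 10 UMIs over both gate groups of a pair, which a low member can pass through the group where it is high. This held for 56 members in at least 1 pair and for 43 in at least 4, and 14 members, 4 of them without any UMI, were in no comparison. Over all pairs there were 404 comparisons, of which 231 were at least 2-fold higher in cycling cells, 22 were at least 2-fold lower and 11 had 0 UMIs in 1 group and no readable direction. The share of all genes past the same fold is given beside each count. In tumour or epithelial cells 35 of 56 members were higher in library 1 (all genes 6.07%) and 5 of 9 in library 2 (5.31%). In fibroblasts the counts were 27 of 40 in library 2 (8.12%), 31 of 46 in library 3 (6.72%) and 30 of 46 in library 4 (6.38%). In endothelial cells 11 of 19 were higher (15%). T cells gave 21 of 30 in library 1 (9.65%), 9 of 19 in library 2 (16.5%), 5 of 15 in library 3 (12.7%) and 5 of 7 in library 4 (7.73%). As shares of the members compared, these were 33.3% to 71.4%. Among monocytes or macrophages 28 of 41 were higher in library 1 (7.13%), 4 of 12 in library 2 (9.73%) and 9 of 30 in library 4 (13.2%). In neutrophils 1 of 14 was higher in library 2 (41.2%) and 10 of 20 in library 3 (38.1%), or 7.14% and 50% of the members compared.

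Members lower in cycling cells made up 22 of the 404 comparisons. The share of members was above that of all genes in tumour or epithelial cells of library 2 and neutrophils of library 3. The same held in monocytes or macrophages of libraries 2 and 4. In the other pairs it was below. No member was lower in tumour or epithelial cells of library 1 (all genes 3.06%) or T cells of libraries 1 (8.95%), 2 (15.3%) and 4 (13.4%). The counts were 2 of 9 in tumour or epithelial cells of library 2 (5.42%), 2 of 40, 3 of 46 and 2 of 46 in fibroblasts of libraries 2 to 4 (13%, 13.5% and 8.82%) and 2 of 19 in endothelial cells (11.8%). They were 1 of 14 and 4 of 20 in neutrophils of libraries 2 and 3 (9.9% and 9.24%), 1 of 41, 1 of 12 and 2 of 30 in monocytes or macrophages of libraries 1, 2 and 4 (2.98%, 6.7% and 4.3%) and 2 of 15 in T cells of library 3 (18.5%). Hist1h2bc made up 5 of these 22 values and Hist1h2al 4. Of the 43 members compared in at least 4 pairs, 28 had a median fold of at least 2, 10 lay between 1 and 2, and 5 were under 1. The same split was not counted over all genes. At least 2-fold higher in every pair compared were 11 of the 43 members. Among these, Hist1h3f, Hist1h3i, Hist1h3g, Hist1h2bh, Hist1h2bl, Hist1h2ab and Hist1h2ak were compared in only 4 to 6 pairs. Their median non-cycling levels were 0 to 0.218 CPM, so they could pass the minimum mainly through the cycling group. The share of all genes higher in every pair compared was not counted. By family, 49 of 62 comparisons were at least 2-fold higher for H3, 60 of 101 for H2A, 58 of 102 for H2B, 36 of 65 for H1 and 28 of 74 for H4. The mean share of all genes over the pairs behind them was 9.02%, 11.6%, 11.3%, 12.9% and 11.6%. Fewer than 10 UMIs in the non-cycling group were behind 45 of the 62 H3 comparisons, 44 for H2A, 59 for H2B, 21 for H1 and 20 for H4, so the H3 genes in particular often passed the minimum through the cycling group.

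**Figure D2:**
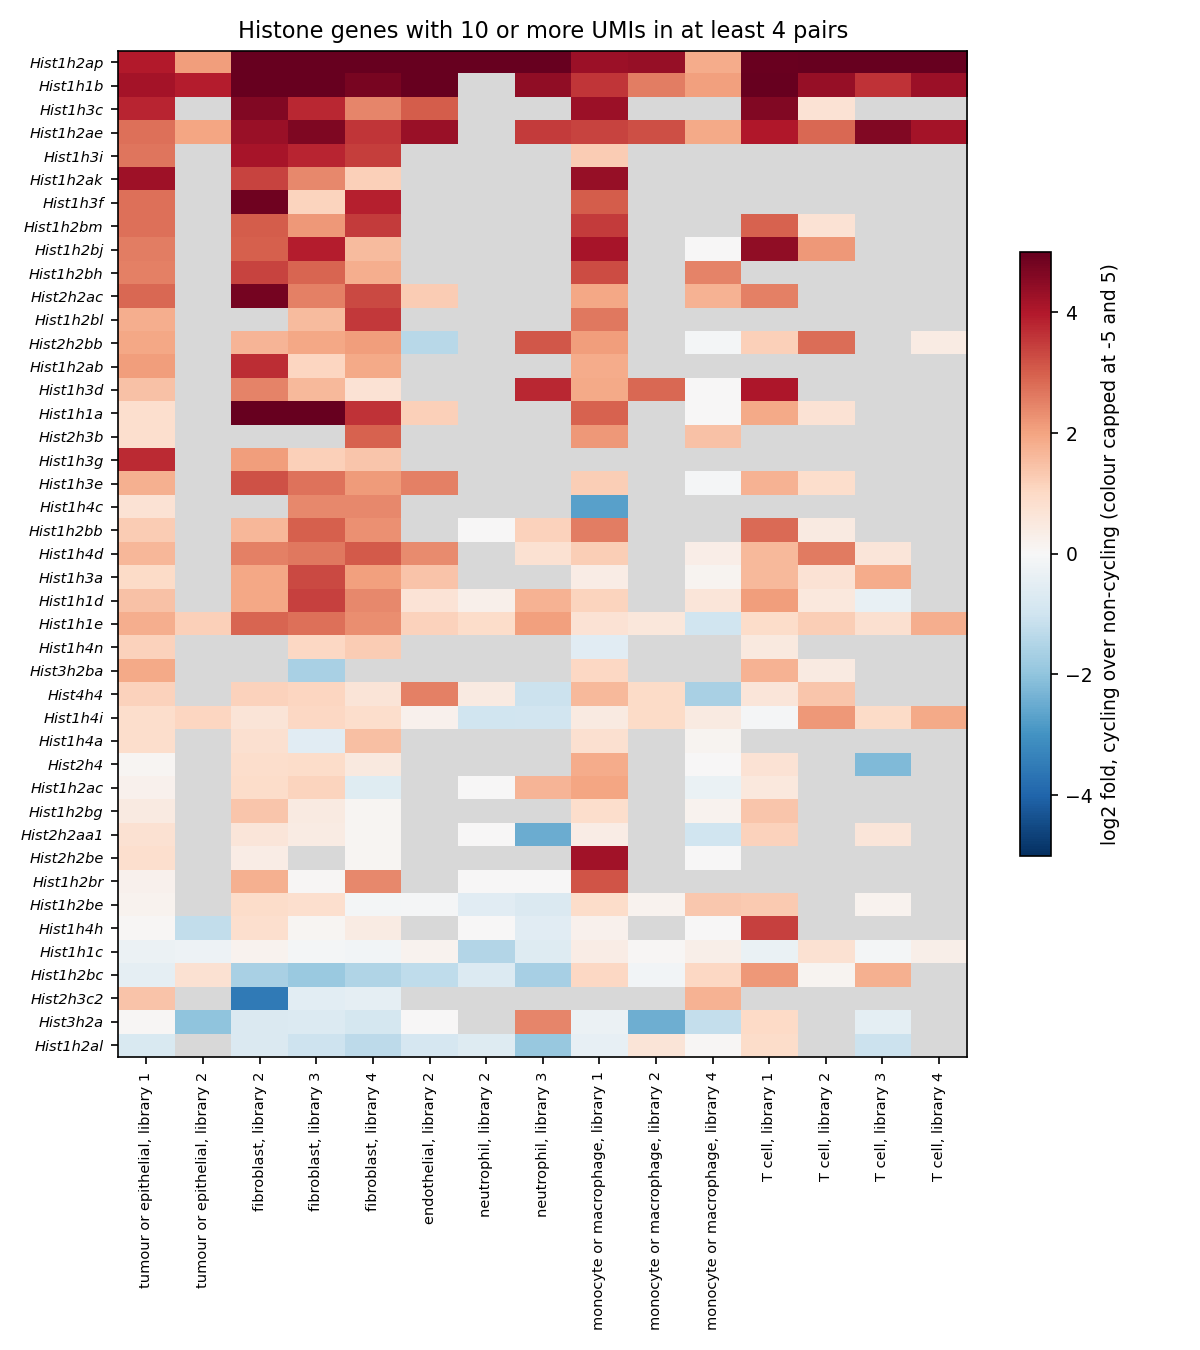
The log2 fold of cycling over non-cycling cells for the 43 members compared in at least 4 pairs, ordered by median fold, with 1 column per pair of a class and a library. Grey marks fewer than 10 UMIs. Hist1h2ap at the top was red in every column, while Hist1h1c, Hist1h2bc, Hist2h3c2, Hist3h2a and Hist1h2al at the bottom were pale, blue or mixed.

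The members with the highest median fold were Hist1h2ap, Hist1h1b, Hist1h3c, Hist1h2ae and Hist1h3i. Hist1h2ap was higher in cycling cells in 15 of 15 pairs, with a median of 36.4-fold. It had 0, 8 and 9 UMIs in non-cycling T cells of libraries 2 to 4 and 2 in non-cycling endothelial cells. In those pairs it passed the minimum of 10 only with the cycling group. In non-cycling fibroblasts of libraries 2, 3 and 4 it was at 2.88, 3.38 and 7.20 CPM, and in cycling ones at 174, 240 and 311, which gave 60.6-fold (46.6 to 80.3), 71.1-fold (50.9 to 103) and 43.2-fold (33.9 to 55.9). In T cells it went from 39.7 to 1209 in library 1, from 0 to 524 in library 2, from 6.96 to 254 in library 3 and from 20.1 to 644 in library 4. The value for library 2 is at least 38.7-fold, set against a floor of 3 counts over the non-cycling cells. The T cell groups did not overlap, and neither did the fibroblast groups. The lowest folds of Hist1h2ap were 3.66 (2.59 to 5.05) in monocytes or macrophages of library 4, from 15.5 to 56.7 CPM, and 4.28 (2.53 to 7.63) in tumour or epithelial cells of library 2, from 13.8 to 59.0. The tumour or epithelial cells of library 1 went from 27.7 to 435. Endothelial cells of library 2 had 2.45 and 154, and neutrophils 2.66 and 117 in library 2 and 5.03 and 218 in library 3. Non-cycling values were thus at most 39.7 and cycling values at least 56.7 over the 15 pairs, without overlap.

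Hist1h1b, which encodes linker histone H1.5, was higher in 14 of 14 pairs with a median of 19.95-fold. It was at 0.606, 0.695 and 1.53 CPM in non-cycling fibroblasts of libraries 2 to 4 and at 58.0, 40.6 and 41.1 in cycling ones. Tumour or epithelial cells of library 1 had 5.13 and 90.6. Hist1h2ae, an H2A gene, was higher in 14 of 14 pairs with a median of 11.6-fold, for example 1.72, 0.893 and 4.91 against 34.1, 22.5 and 58.9 in the same fibroblasts. In many of these pairs both genes passed the minimum of 10 UMIs only with the cycling group. In non-cycling T cells of libraries 1 to 4 Hist1h1b had 5, 0, 3 and 2 UMIs. Hist1h2ae had 3 in each of libraries 2 to 4 there. In non-cycling endothelial cells Hist1h1b and Hist1h2ae had 1 and 3. They had 7 and 9 in non-cycling fibroblasts of library 3, and 2 and 6 in non-cycling tumour or epithelial cells of library 2. Hist1h1b also had 7 in non-cycling monocytes or macrophages of library 2, and Hist1h2ae 9 in non-cycling neutrophils of library 3. The counts of pairs and the median folds of both genes therefore depend on that minimum. Hist1h3c, an H3 gene, was higher in 7 of 8 pairs with a median of 14.0-fold, and Hist1h3i, also H3, in 5 of 5 with 10.9-fold. These rest on few molecules, and both genes could pass the minimum of UMIs mainly through the cycling group. In fibroblasts of libraries 2 to 4 Hist1h3i had 2, 1 and 1 UMIs in non-cycling and 20, 37 and 27 in cycling cells. Hist1h3c had 4, 3 and 13 against 57, 110 and 175 there. Their counts of pairs and their rank by fold therefore depend on that minimum. Hist1h3i had 6 UMIs in 1670 non-cycling and 39 in 963 cycling tumour or epithelial cells of library 1.

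Other members with many UMIs were higher by less. Hist1h4d, an H4 gene, had a median of 3.12-fold and was at least 2-fold higher in 8 of 11 pairs. The linker histone genes Hist1h1d and Hist1h1e, for H1.3 and H1.4, had medians of 2.46-fold and 2.29-fold and were higher in 7 of 12 and 9 of 15 pairs. Hist1h1e went from 4.34, 4.67 and 7.20 to 32.4, 31.7 and 36.0 CPM in fibroblasts of libraries 2 to 4 and from 57.4, 40.6, 27.8 and 22.4 to 109, 95.7, 48.0 and 79.0 in T cells of libraries 1 to 4. The H1 genes thus ranged in median fold from 19.95 for Hist1h1b to 0.93 for Hist1h1c.

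Hist1h1c was at least 2-fold higher in 0 of 15 pairs and at least 2-fold lower in 1, with a median of 0.93. In fibroblasts of libraries 2 to 4 it was at 24.0, 38.8 and 23.4 CPM in non-cycling and 27.3, 36.1 and 21.4 in cycling cells. In T cells it was at 227, 49.7, 57.4 and 46.9 against 180, 84.6, 53.4 and 58.2. The groups overlapped in both classes. In fibroblasts of library 3 the interval of the fold ran from 0.825 to 1.05.

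Hist1h2bc took different directions by class, and in some classes by library. In fibroblasts of libraries 2 to 4 it fell from 52.3, 61.6 and 42.9 to 16.9, 16.9 and 15.1 CPM, with folds of 0.323 (0.275 to 0.376), 0.275 (0.243 to 0.311) and 0.351 (0.303 to 0.407), and the groups did not overlap. In endothelial cells of library 2 it went from 25.7 to 10.7. Neutrophils had 86.2 and 53.0 in library 2, where the interval of the fold (0.293 to 1.14) included 1, and 93.7 and 29.9 in library 3, 0.319-fold (0.152 to 0.591). In T cells it went from 160 to 715 in library 1 (4.46-fold, 3.68 to 5.44) and from 7.83 to 26.7 in library 3 (3.41-fold, 1.24 to 9.48, on 9 and 10 UMIs). It was at 13.5 and 14.7 in library 2 and at 6.71 and 8.31 in library 4, on 2 to 8 UMIs each, where no difference was detectable. In monocytes or macrophages the folds were 2.04 (1.84 to 2.25) in library 1, 0.904 (0.440 to 1.67) in library 2 and 2.04 (1.25 to 3.15) in library 4. In tumour or epithelial cells they were 0.738 (0.704 to 0.774) in library 1 and 1.69 (1.18 to 2.43) in library 2. The difference between fibroblasts and T cells was not tested, since the libraries are not replicates of known group.

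The remaining members with a median fold under 1 were Hist1h2al (0.596), Hist3h2a (0.665) and Hist2h3c2 (0.725). Hist3h2a, an H2A gene outside the main clusters, was at 6.26, 10.3 and 10.0 CPM in non-cycling and 3.82, 6.42 and 5.49 in cycling fibroblasts of libraries 2 to 4. Those values overlapped at their edge, with 6.42 in library 3 above 6.26 in library 2, although each library showed the lower value in cycling cells. Hist2h3c2, an H3 gene, rested on 221 UMIs in all and took both directions. It was at least 2-fold higher in 2 of 5 pairs and at least 2-fold lower in 1. In tumour or epithelial cells of library 1 it had 9 UMIs in non-cycling and 25 in cycling cells. In fibroblasts of library 2 it had 20 and 1.

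In non-cycling cells, Hist1h2be, Hist1h4i and Hist1h2al had their highest levels in neutrophils, cells that have left the cell cycle. Hist1h2be, an H2B gene, was at 31.5, 47.4, 34.7 and 48.8 CPM in neutrophils of libraries 1 to 4 and at 0 to 9.57 in the other 5 classes shown in the plot of non-cycling levels. Hist1h4i, an H4 gene, was at 101, 94.4, 123 and 69.98 in neutrophils and at 3.58 to 45.3 elsewhere. Hist1h2al was at 30.8, 58.6, 55.9 and 72.4 in neutrophils and at 0 to 18.9 elsewhere. Neutrophils did not overlap the other classes for these 3 genes. The share of all genes that separate neutrophils in this way was not counted, so the pattern cannot be called particular to histones. Hist3h2a was ordered the other way and had 3.50, 1.24, 2.22 and 5.24 in neutrophils against 4.52 to 28.6 elsewhere, with the neutrophil value of library 4 inside that range. These are sums over cells of 1583.5 to 1932 median UMIs, against 3349.5 or more in the other classes of the same libraries with all 4 measured, and levels in CPM do not remove that difference in depth.

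**Figure D3:**
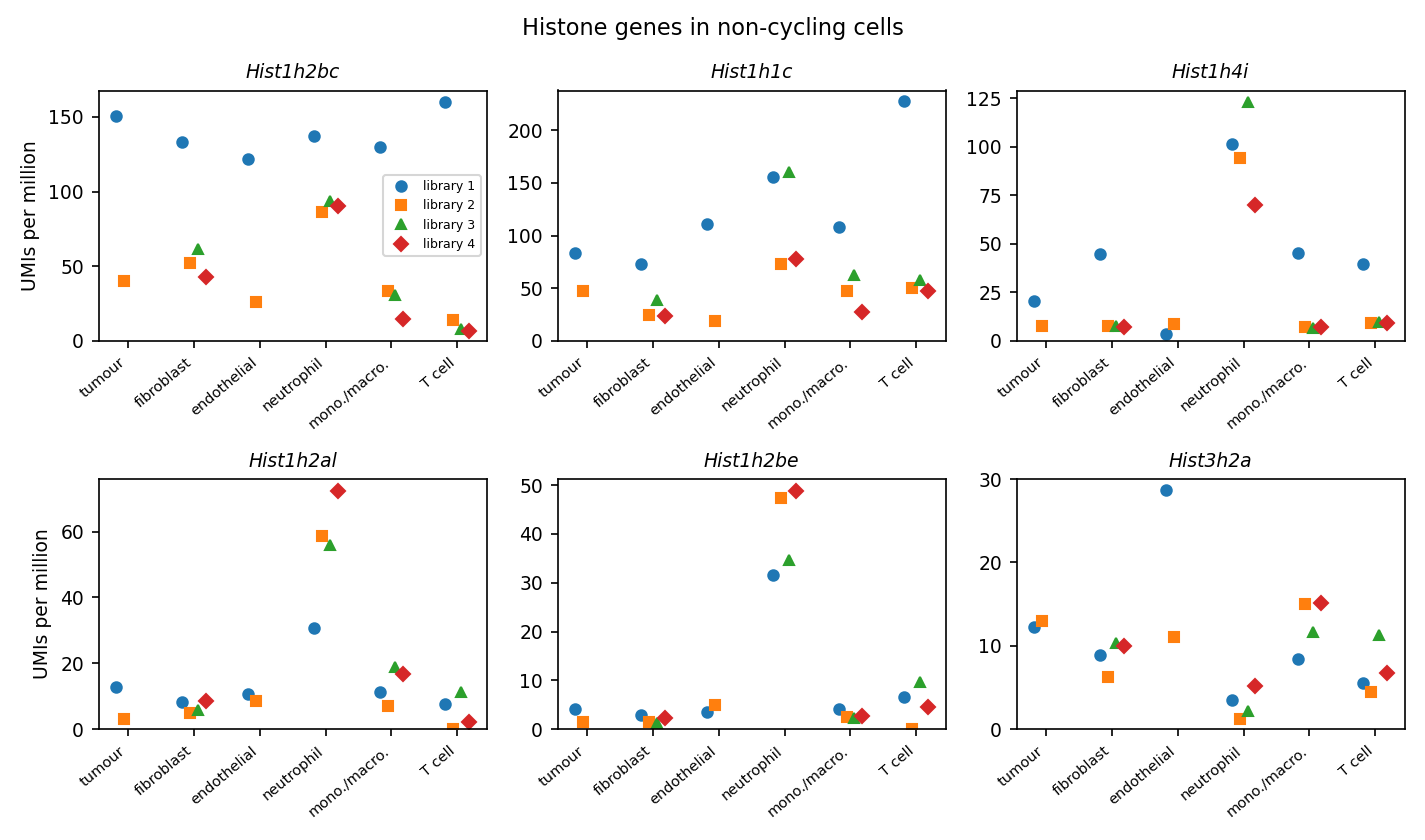
CPM in non-cycling cells of 6 classes for 6 histone genes, with 1 point per library that held at least 20 such cells. Neutrophils stood above the other classes for Hist1h4i, Hist1h2al and Hist1h2be, and library 1 (circles) stood above the other libraries for Hist1h2bc.

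Library 1 stood apart in non-cycling cells. The summed level there was 340 in fibroblasts against 125 to 151 in libraries 2 to 4, 491 in monocytes or macrophages against 162 to 204, and 724 in T cells against 201 to 253. In neutrophils it was 653 against 426 to 554. The 8 tumour or epithelial markers were also higher in these cells of library 1, at 603, 475 and 799 CPM against 23.6 to 75.6, 2.78 to 50.6 and 13.0 to 54.2, with all 8 above 0 in library 1. In neutrophils they were at 894 against 3.81 to 45.1. Their part in the histone levels was not tested. Without library 1, 147 of 277 comparisons were at least 2-fold higher in cycling cells. In the single pairs of libraries 2 to 4 the share of all genes was 5.31% to 41.2%.

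Along the cycle, cycling cells with at least 10 UMIs over 2 lists of S-phase and G2/M genes were put in 4 bins by the S-phase share of those UMIs, with Slbp and Cenpa left out of the lists. In fibroblasts the summed histone level was highest in the middle bins in each library. From the lowest to the highest share it was 175, 679, 705 and 216 CPM in library 2, 135, 480, 691 and 346 in library 3, and 321, 685, 1016 and 352 in library 4, over 50 to 171 cells a bin. Tumour or epithelial cells of library 1 had 1400, 1473, 1550 and 438, over 145 to 256 cells a bin. In monocytes or macrophages of library 1 it was 2112, 3900, 2664 and 542, over 24 to 53 cells. At full depth, cells with an S-phase share of 75% or more were below both middle bins in 5 of 5 cases. The lowest bin was also below both middle bins in 5 of 5 cases, by the least in tumour or epithelial cells (1400 against 1473 and 1550).

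The ratio of the highest to the lowest share was 1.23, 2.55 and 1.10 in fibroblasts of libraries 2 to 4, 0.313 in tumour or epithelial cells and 0.257 in monocytes or macrophages. Without the cells with the highest 5% of UMIs the ratio turned to 0.659 in fibroblasts of library 2, and after drawing cells down to 2000 UMIs it was 0.841 in tumour or epithelial cells. At least 2-fold higher at the highest share were 2 of 11 members in library 2 (all genes 6.85%), 12 of 23 in library 3 (5.12%) and 2 of 29 in library 4 (4.77%) of the fibroblasts, 0 of 44 in tumour or epithelial cells (3.69%) and 0 of 15 in monocytes or macrophages (8.92%). At least 2-fold lower were 1 of 11 (5.52%), 1 of 23 (4.22%), 2 of 29 (4.75%), 34 of 44 (4.88%) and 13 of 15 (5.83%) in the same order. Hist1h2ap followed the sum, with 51.9, 267, 287 and 105 in fibroblasts of library 2, 36.8, 238, 367 and 177 in library 3 and 149, 355, 550 and 185 in library 4. Hist1h1c, flat between the gate groups, also had its lower values at the ends in fibroblasts, for example 24.7, 40.9, 33.9 and 6.40 in library 2.

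**Figure D4:**
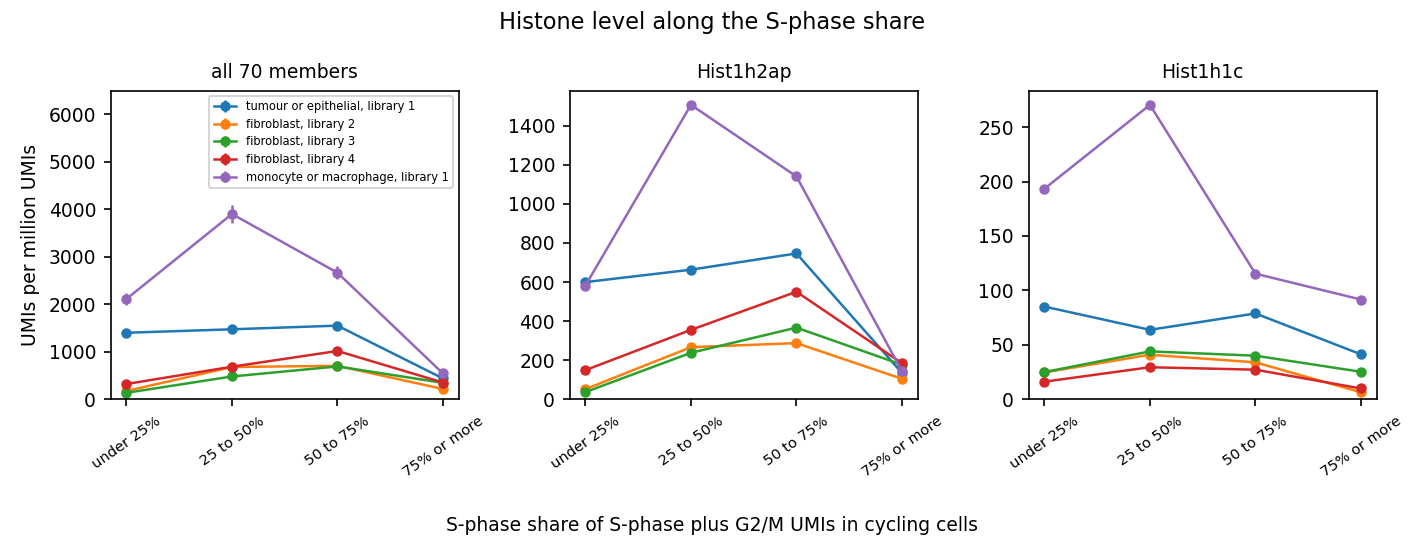
CPM of all 70 histone genes, of Hist1h2ap and of Hist1h1c in cycling cells, in 4 bins of the S-phase share, for the 5 pairs of a class and a library with at least 20 cells in every bin; bars on the left are 95% Poisson intervals. Levels at 75% or more were below both middle bins in each pair for the sum and for Hist1h2ap.

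The molecules were unevenly spread over cycling cells. The 10% of cycling cells with the most histone UMIs held 20.7% to 73.0% of them across the 15 pairs. In tumour or epithelial cells of library 1 the median cycling cell held 13 histone UMIs and the highest 304, and 2.80% had none. Of Hist1h2ap, the top 10% held 59.4% there, and 32.2% of the cycling cells had none. In cycling neutrophils all 22 UMIs of Hist1h2ap in library 2 lay in 2 of 20 cells, and all 73 in library 3 in 4 of 41 cells. Intervals on summed counts do not carry this spread between cells. After drawing each cell down to 2000 UMIs, 31.4% of cycling and 4.46% of non-cycling tumour or epithelial cells of library 1 had a UMI of Hist1h2ap (67.8% and 28.3% at full depth, with median depths of 26620 and 15486 UMIs). The thinning left out 8 and 78 shallower cells. For Hist1h1c the thinned shares were 14.7% and 13.1%. In non-cycling neutrophils of the same library, of 1583.5 median UMIs, 3.54% of cells had a UMI of Hist1h2ap at full depth.

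Promoter windows of 300 bases, from RefSeq (GRCm38.p6), were found for 61 members, 1 of them with a pair of windows. The octamer ATTTGCAT, on either strand, lay in 14 of 62 windows (22.6%) against 1.74% of all 32851 promoters, and all 14 were H2A or H2B genes. CCAAT lay in 53 windows (85.5%, all promoters 37.4%), in every H1, H2A, H2B and H3 window but in 3 of 12 H4 windows. TATAAA lay in 35 (56.5%, all promoters 13.6%). The members Hist1h2ae and Hist1h2bg face away from each other and share 1 octamer, shown in capitals as read on the strand of each gene, at chr13:23571331-23571358:
Hist1h2ae: tagaggttctATGCAAATaagggactca
Hist1h2bg: tgagtcccttATTTGCATagaacctcta
Across this shared stretch the folds differed. Hist1h2ae was at 12.9 CPM in non-cycling and 86.9 in cycling tumour or epithelial cells of library 1, 6.73-fold (6.01 to 7.56), and Hist1h2bg at 4.76 and 6.46, 1.36-fold (1.08 to 1.72). In monocytes or macrophages of library 1 the folds were 10.3 (8.26 to 12.9) and 1.86 (0.945 to 3.63). Hist1h2bg was at least 2-fold higher in 2 of 7 pairs. Of the members compared in at least 4 pairs, 10 with an octamer had a median fold of 3.48 and 26 without had 3.29.

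Members were also set side by side by their annotated 3′ end. Of the 14 members compared in at least 4 pairs with an AATAAA after the stop, 5 had a median fold of at least 2 and 3 were under 1, with a middle value of 1.49. Of the 29 without, 23 were at 2 or more and 2 under 1, with a middle value of 3.66. These 29 include Hist1h2al, which has no coding transcript and gives their lowest value. They also include members annotated only to the stop or shortly after it, such as Hist1h1b (0 bases), Hist1h1a (48) and Hist1h2ap (57). An AATAAA further downstream would not be seen there, and the part of this in the contrast was not tested. The range of both groups was wide and overlapped, from 0.665 to 11.6 and from 0.596 to 36.4. Among 15 members with over 500 annotated bases after the stop, 7 reached 2-fold, and among 27 with fewer, 21 did. Hist1h2ae had an AATAAA and a median of 11.6-fold, and Hist2h3c2 had none and 0.725, on few UMIs and with folds in both directions. Sharing of sequence moved with the fold as well, since 16 of 21 members with over 50% shared stretches and 12 of 22 others reached 2-fold. Its part in the comparison was not tested.

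**Figure D5:**
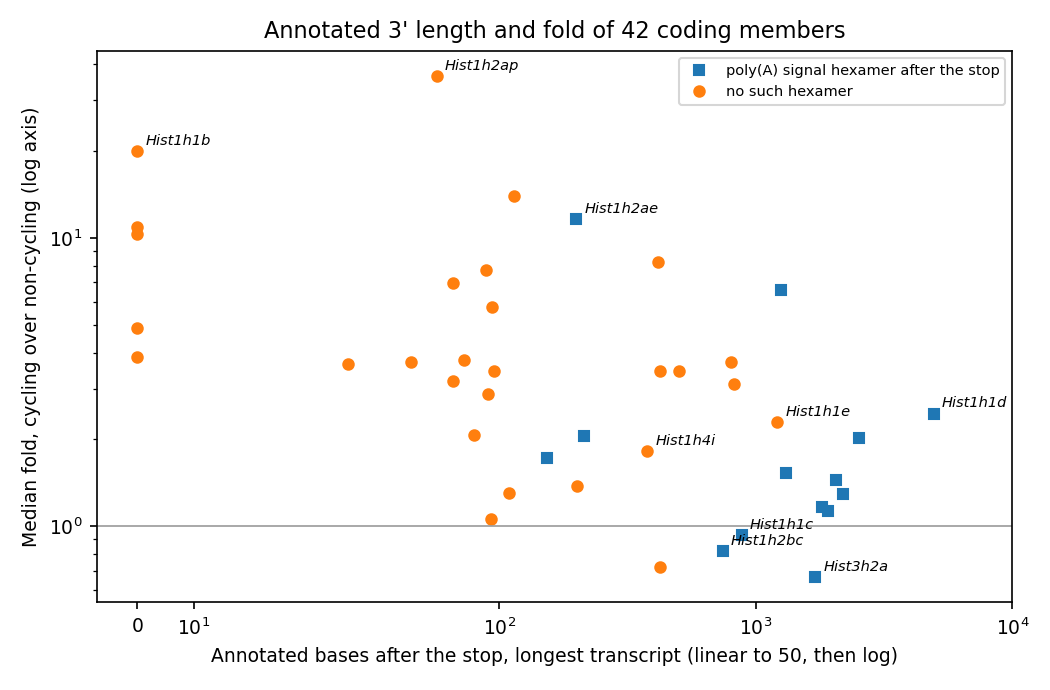
Median fold of cycling over non-cycling cells (log axis) against the annotated bases after the stop in the longest transcript, for the 42 coding members compared in at least 4 pairs, with squares where a poly(A) signal hexamer follows the stop. Hist1h2bc (742 bases), Hist1h1c (880) and Hist3h2a (1700) were under 1-fold and lay to the right, Hist2h3c2 (423 bases) was under 1-fold with a shorter end, and Hist1h1d (4931 bases) was at 2.46-fold.

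Genes that act with the histones were counted in the same pairs, where 5.31% to 16.5% of all genes were at least 2-fold higher outside neutrophils and 41.2% and 38.1% in neutrophils. Of 10 histone chaperones, such as Nasp, 5 to 9 were at least 2-fold higher in cycling cells outside neutrophils and 10 in both neutrophil pairs, and none was lower. Of 11 to 13 genes for histone mRNA synthesis and 3′ end processing, 0 to 6 were higher outside neutrophils, and 7 of 12 and 6 of 12 in neutrophils, with at most 1 lower. Slbp, which binds the stem-loop, was at 51.3, 69.0 and 56.1 CPM in non-cycling and 99.7, 136 and 97.6 in cycling fibroblasts of libraries 2 to 4. In neutrophils of libraries 2 and 3 it was at 142 and 148 in non-cycling and 154 and 176 in cycling cells. Nasp was at 38.0, 63.3 and 60.3 against 146, 217 and 174 in the same fibroblasts. Replication-independent histones, whose mRNAs usually carry poly(A) tails, had 2 to 6 of 9 to 11 genes at least 2-fold higher outside neutrophils. In neutrophils it was 5 of 9 and 6 of 10, and none was lower. This list includes H2afx, which held the stem-loop in the search above, and Cenpa, which is also in the G2/M list. Within this list H2afz, the H2A.Z gene, was at 357, 529 and 562 against 1479, 1974 and 1578 in the same fibroblasts. Of the S-phase genes 14 to 20 of 16 to 20 were higher outside neutrophils, and 17 of 18 and 17 of 20 in neutrophils. Of the G2/M genes 17 to 20 of 17 to 20 were higher outside neutrophils, and 10 of 16 and 18 of 19 in neutrophils. None of either list was lower, and both hold genes of the same cycle phases as the gate.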

How the data were processed

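The authors deposited 1 matrix of whole-number UMI counts per gene and barcode, produced by Cell Ranger from alignment to the joined table. Its version is 3.0.2 in the methods, 6.1.2 in the header of the matrix, and 2.1.1, beside the build mm10, in the submitters' processing notes. No source used here says whether depth was equalised between libraries. Libraries held 69255999 to 108646352 UMIs.

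Barcodes were filtered by the gene and mitochondrial limits of the study's methods, and genes seen in few cells were kept. The labels state 15603 cells after these limits, and 32133 of the 33064 deposited barcodes remain here, so the table may hold more cells or libraries than the study analysed. A cell took the class with the most detected markers of 8, if at least 3 and at least 2 more than any other class. Doublets were not called. UMIs were summed per class, library and gate group, and folds of the level per 1000000 UMIs (CPM) carry exact conditional 95% intervals. A 0 was set to 3 counts, and a bound on the wrong side of 1 was set to 1. Steps were tested on simulated data. Members and lists were chosen with earlier results of these data known. Values are given for the 12 members with the most UMIs, the 5 with the highest and 5 with the lowest median fold among those compared in at least 4 pairs, and 3 testis genes; Hist1h2bg was added after its values were seen. Python 3.11.15, numpy 2.4.6, scipy 1.17.1, pandas 2.3.3 and matplotlib 3.10.9 were used. Alternatives are given in the closing section.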

Additional observations from a re-analysis of the deposited data

Results flagged for a closer look

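In 52 groups of 4 libraries (the summed level and the 12 members with the most UMIs, in non-cycling cells of 4 classes), a library was marked when its gap to the nearest other, over the range, was above 0.829. Chance marks about 1 in 20 independent groups. These groups are not independent, since the sum holds the members and the same 4 libraries recur, so that rate cannot be set against the marks. The share of all genes marked was not counted, so a shift of the whole library cannot be told from one of the histones. All 15 marks were the highest value and fell on library 1. In fibroblasts they were the summed level (340 CPM, others 125 to 151) and Hist1h4i (44.8, others 7.09 to 7.74). In neutrophils they were Hist1h2bc (137, others 86.2 to 93.7), Hist1h2ae (24.5, others 0.354 to 3.33) and Hist1h1e (63.7, others 8.50 to 10.8). In monocytes or macrophages they were the summed level (491, others 162 to 204), Hist1h2bc (130.1, others 14.2 to 33.4), Hist1h1e (33.8, others 12.9 to 15.7), Hist1h1b (6.54, others 1.57 to 1.88), Hist1h4i (45.3, others 6.66 to 7.00) and Hist1h1d (13.2, others 1.88 to 2.78). In T cells they were the summed level (724, others 201 to 253), Hist1h2bc (160.1, others 6.71 to 13.5), Hist1h1c (227, others 46.9 to 57.4) and Hist1h4i (39.7, others 8.94 to 9.57). The treatment of library 1 is unknown.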

How the results depend on the processing

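The summed level stayed higher in cycling cells, by the median over libraries, under every alternative run for the 6 classes. In both neutrophil pairs the main fold of the sum was below the median fold of all genes. The median fold of the members was below it in library 2 and above it in library 3. No alternative left Hist1h2ap out of the neutrophils. A gate of at least 1 UMI gave 2.81-fold in fibroblasts, 1.60 in monocytes or macrophages and 3.81 in T cells, and at least 4 UMIs gave 3.43 in tumour or epithelial cells (library 1 alone), 4.37 in fibroblasts and 4.71 in monocytes or macrophages (library 1 alone). A gate on Birc5, Ube2c and Cdk1 gave 2.94 in fibroblasts. Thinning to 2000 UMIs gave 4.39 in tumour or epithelial cells (library 1 alone) and 2.89 in fibroblasts. Leaving out the highest 5% of UMIs gave 3.02 in fibroblasts, 2.20 in endothelial cells and 1.39 in monocytes or macrophages. Without the member with the most UMIs in each pair, here Hist1h2ap, the folds were 2.13 in fibroblasts, 2.25 in endothelial cells and 3.55 in T cells. In neutrophils that member was Hist1h4i in library 2 and Hist1h1c in library 3. Hist1h2ap held 22 of 84 histone UMIs in cycling and 15 of 2407 in non-cycling neutrophils of library 2. In library 3 it held 73 of 248 and 34 of 3748. In CPM it was 117 of 445 in cycling and 2.66 of 426 in non-cycling neutrophils of library 2. In library 3 it was 218 of 742 and 5.03 of 554. The other members together were thus lower in cycling cells in both neutrophil pairs, and no interval was computed for this. Weighting cells equally gave 2.72, 1.53 and 1.43 in fibroblasts, endothelial cells and neutrophils. No value could be had for thinned endothelial cells, or for neutrophils when thinned, at 4 UMIs or with the other gate genes, which left too few cells. Leaving out 1 library gave 1.64 to 2.63 in tumour or epithelial cells, 3.35 to 3.88 in fibroblasts, 1.04 to 1.34 in neutrophils, 1.95 to 2.93 in monocytes or macrophages and 4.69 to 6.41 in T cells. Of 404 comparisons, 231 were at least 2-fold higher. With thinning it was 47 of 79, at 4-fold 143 and with a minimum of 30 UMIs 125 of 227. Without library 1, an alternative chosen after seeing the data, it was 147 of 277. All but the second of these alternatives had fewer comparisons. The share of all genes was not counted with thinning, at 4-fold or at 30 UMIs, so these counts cannot be set against it. The median ratio of the highest to the lowest S-phase share over 5 pairs was 1.10, the value of fibroblasts of library 4. Without the highest 5% of UMIs the median was 0.659, the value of fibroblasts of library 2, which had been 1.23. Fibroblasts of library 4 were then at 1.31. The median thus moved to a different pair and to the other side of 1, and the cause was not tested. The other 58 values kept their direction and moved by less than the spread between libraries, for endothelial cells less than the counting interval and for counts of members less than 1.5 times. Depth was limiting in the 2 neutrophil pairs. No paired analysis was possible because no result comes from a test; each fold already compares cycling with non-cycling cells of the same library.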
